A study of Mus musculus with 405 samples.

Results

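Genes encoding collagens, laminins and other proteins of the extracellular matrix were followed in mouse cortical cultures exposed to single chemicals. They were picked by symbol. The rules took every collagen or laminin chain symbol, with Fn1, Hspg2, Thbs1, Thbs2, Sparc, Nid1, Nid2, Fbn1, Fbln1, Fbln2, Bgn and Dcn. This choice was made with earlier results of these data known. These rules found 67 genes among the 23893 of a table of raw counts for pyraclostrobin, with 44 collagens, 11 laminins and 12 others, and 49 genes among the 13304 of a table that covers the whole screen, with 29, 8 and 12. Cells came from cortex of embryos of C57BL/6J dams and CAST/EiJ males, dated to day 15 by the labels. They were grown in culture, given drugs that stop dividing cells, and exposed for a day to a chemical or to vehicle before polyadenylated RNA was sequenced. The count table compared pyraclostrobin at 0.1 μM with vehicle, with 4 libraries in each group. The screen table held 49 vehicle libraries and 344 libraries of 297 chemicals, of which 282 had a single library. Repeated chemicals used below were topotecan at 0.3 μM with 32 libraries, and fenamidone and famoxadone at 10 μM, rotenone at 0.01 μM, azoxystrobin at 0.1 μM and chlorothalonil at 1 μM, with 2 libraries each. All cultures, vehicle included, share the same hybrid cross and the same antimitotic treatment, and hold non-neuronal cells beside neurons.

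The extracellular matrix is the secreted mesh that surrounds cells and anchors them. Fibrillar collagens form cables that resist pulling, whereas type IV collagens and laminins build the networks of the basement membrane, which are joined by nidogens and by perlecan, the heparan sulphate proteoglycan encoded by Hspg2. In brain, fibrillar collagens and basement membranes belong mainly to meninges and blood vessels, and the space between neurons is filled instead by hyaluronan-binding lecticans such as neurocan. Matricellular proteins such as thrombospondins and SPARC do not build the mesh but bind to it and alter adhesion.

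Sequences upstream of gene starts were available from RefSeq (build GRCm38.p6) for 48 of the 67 genes. Those of Hspg2 and Lama5, which had the largest rises with pyraclostrobin among genes with such a sequence, and of Col19a1, which fell, are shown to let a reader compare them. Each runs 5′ to 3′ over the 250 bases before the start, and capitals mark GGGCGG on either strand, the core letters of a GC box.
Hspg2, chr4:137468553-137468802, forward strand: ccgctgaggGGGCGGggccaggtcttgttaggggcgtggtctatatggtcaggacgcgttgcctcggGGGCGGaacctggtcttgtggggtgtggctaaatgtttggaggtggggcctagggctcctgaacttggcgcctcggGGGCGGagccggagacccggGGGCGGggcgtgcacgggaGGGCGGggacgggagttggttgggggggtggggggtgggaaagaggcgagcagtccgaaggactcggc
Lama5, chr2:180225860-180226109, reverse strand: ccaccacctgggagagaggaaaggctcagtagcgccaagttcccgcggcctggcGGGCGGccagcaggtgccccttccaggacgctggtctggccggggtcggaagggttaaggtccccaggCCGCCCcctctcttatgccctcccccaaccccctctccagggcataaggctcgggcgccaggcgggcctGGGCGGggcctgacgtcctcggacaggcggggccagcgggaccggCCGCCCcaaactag
Col19a1, chr1:24587438-24587687, reverse strand: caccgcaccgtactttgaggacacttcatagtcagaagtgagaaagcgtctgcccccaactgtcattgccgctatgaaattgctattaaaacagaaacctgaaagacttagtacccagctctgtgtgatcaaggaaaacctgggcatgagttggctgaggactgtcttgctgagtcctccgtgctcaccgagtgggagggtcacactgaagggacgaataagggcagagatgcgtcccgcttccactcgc
Hspg2 held 5 such matches, Lama5 held 4 and Col19a1 held 0. Other matrix genes did not follow this: Sparc, Lamb2 and Col4a1, which rose, held 0. Col25a1, which was lower without passing the test, held 2. Of 24 upstream sequences from matrix genes that rose with pyraclostrobin, 75% contained GGGCGG, against 32.9% of all 27018 upstream sequences. Among 9162 genes with enough counts to be tested the share was 61.6%, and among 1105 tested genes of any kind that rose it was 63.6%, values that lie nearer to the 75% than the share of all promoters does. CCAAT was found on either strand in 41.7% of the 24 and in 36.6% of tested genes, and TATAAA in 8.33% and 5.81%. A match is only a match of letters, and no binding was measured.

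Library totals lay between 2409623 and 7833440 counts, and vehicle libraries 3 and 4 were the deepest. Within each group, the first library differed most from the others: chi-square per degree of freedom between vehicle library 1 and the rest was 17.96 to 26.29, against 2.16 to 2.645 among the rest, and for pyraclostrobin it was 7.637 to 10.41 against 1.781 to 2.909. No libraries of a group agreed within sampling noise. The first pyraclostrobin library carries the same library number as the pyraclostrobin library of the screen, so these tables share it.

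Matrix genes rose together with pyraclostrobin, an inhibitor of mitochondrial complex III. They took 0.457% to 0.598% of all counts in pyraclostrobin libraries and 0.0801% to 0.119% in vehicle libraries. Of the 67 genes, 43 had at least 10 counts in 4 libraries. Among these 43, 33 were higher and 1 was lower with pyraclostrobin (edgeR quasi-likelihood test, Benjamini-Hochberg adjusted p under 0.01), whereas 21.3% of all 12324 tested genes were called, 12.1% higher and 9.22% lower. The median log2 fold change of the 43 was 2.26, against -0.00 for all tested genes, and 24 rose over 4-fold, as 4.2% of all tested genes did. Of the 43, 32 had at least 10 counts in every vehicle library, and 27 of these 32 rose. In 33 genes every pyraclostrobin library lay above every vehicle library, a pattern seen in 18.1% of tested genes. In 1 gene every pyraclostrobin library lay below, as in 17% of tested genes. In bulk RNA, more cells of a type and more RNA per cell cannot be told apart.

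Thrombospondin 1 and fibronectin rose by more than most matrix genes, and the other matricellular genes by less than the median of the 43. Thbs1 (chromosome 2, 117937612 to 117952869, mm9), which encodes thrombospondin 1, measured 84.21, 75.25, 56.53 and 68.19 CPM (counts scaled to library size by TMM) in vehicle libraries 1 to 4 and 674, 647.9, 815 and 633.5 CPM in pyraclostrobin libraries 1 to 4. The groups were far apart, with a 9.82-fold rise (log2 3.30 ± 0.153 SE, adjusted p = 1.87e-06, edgeR). Fn1, which encodes fibronectin, an adhesive protein that integrins bind, measured 55.78, 48.1, 46.87 and 60.42 CPM in vehicle and 522.6, 307, 505.1 and 370.6 CPM in pyraclostrobin, a rise of 8.08-fold (log2 3.01 ± 0.190, adjusted p = 3.88e-06, edgeR). Sparc, the collagen-binding protein osteonectin, measured 464.4, 248.6, 223.3 and 209.4 CPM in vehicle, and 1473, 1140, 1337 and 1090 CPM with pyraclostrobin (log2 2.14 ± 0.241, adjusted p = 0.000104, edgeR). Vehicle library 1 was the highest of its group for Sparc and Thbs1, but well below every pyraclostrobin library. Per kilobase of exon, Sparc had the highest level of all matrix genes in both groups, at 85.1 CPM per kb in vehicle and 374 CPM per kb with pyraclostrobin, and Thbs1 was next at 11.7 and 114 CPM per kb. Thbs2 rose less, from 6.40 ± 1.25 to 22.1 ± 7.05 CPM (mean ± SD, n = 4 libraries).

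Genes of the basement membrane sheet rose with few exceptions. Perlecan (Hspg2) measured 16.7, 24.44, 15.04 and 24.38 CPM in vehicle and 224.3, 233.7, 235.7 and 188.6 CPM in pyraclostrobin, with the largest change of all 43 genes (11-fold, log2 3.46 ± 0.185, adjusted p = 1.87e-06, edgeR). Lama5, a laminin alpha chain, rose from 15.63, 12.8, 8.997 and 12.26 CPM to 149.4, 99.45, 118.1 and 107.7 CPM (log2 3.29 ± 0.200, adjusted p = 3.88e-06, edgeR). Lamc1, the gamma chain shared by most laminins, was even among vehicle libraries, at 54.36, 51.2, 56 and 55.33 CPM, and rose to 361.2, 254.6, 275.5 and 238.9 CPM (log2 2.38 ± 0.148). Beta chain changes differed in size, with Lamb2 at log2 2.73 ± 0.215 and Lamb1 at log2 1.14 ± 0.181, both called. Lama1 and Lama2 did not pass the threshold, with log2 values of 1.15 and 1.11. Nidogens joined in: Nid1 rose from 11.2 ± 1.72 to 44.5 ± 11.1 CPM and Nid2 from 4.77 ± 1.24 to 25.3 ± 7.67 CPM (SD, n = 4).

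Type IV collagen chains, which form the network of the basement membrane, rose by unequal amounts. Col4a1 measured 29.85, 32.97, 33.44 and 33.95 CPM in vehicle and 143.5, 157, 258.8 and 187.1 CPM with pyraclostrobin (log2 2.52 ± 0.188, adjusted p = 9.12e-06, edgeR). Its partner chain Col4a2 measured 44.77, 47.32, 54.52 and 49.95 CPM in vehicle and 82.68, 134.2, 188 and 130.1 CPM with pyraclostrobin (log2 1.44 ± 0.212, adjusted p = 0.000459, edgeR). Col4a2 was thus the higher of the pair in vehicle and the lower in pyraclostrobin. These genes lie head to head on chromosome 8 (Col4a1 at 11198423 to 11312826 on the reverse strand, Col4a2 at 11312805 to 11449287 on the forward strand, mm9), with models that overlap by 22 bases, so reads there could be assigned to either if strand was not used. Col4a5 and Col4a6, another such pair, changed by log2 2.89 ± 0.280 and 2.26 ± 0.439. Col18a1, a basement membrane collagen whose end fragment is endostatin, rose from 36.24, 30.26, 26.59 and 32.3 CPM to 162.2, 182.1, 214.9 and 191.8 CPM (log2 2.59 ± 0.144).

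Fibrillar collagens all rose where they could be tested, 7 of 7, with a median log2 of 2.48. Col1a1 measured 23.81, 11.25, 13.56 and 13.31 CPM in vehicle and 75.27, 96.09, 168.4 and 101 CPM with pyraclostrobin (log2 2.86 ± 0.289, adjusted p = 5.66e-05, edgeR). Col1a2, which supplies the other chain of type I collagen, was less secure. Its vehicle libraries held 17.77, 3.879, 4.834 and 5.832 CPM and its pyraclostrobin libraries 23.4, 28.79, 49.57 and 16.9 CPM, so that the groups overlapped through vehicle library 1 (log2 1.96 ± 0.467, adjusted p = 0.00754, edgeR). Col3a1 rose from 5.25 ± 1.16 to 24.7 ± 12.4 CPM (SD, n = 4). Both short-chain collagens tested were among the largest rises, Col8a1 at log2 2.90 ± 0.210 and Col8a2 at log2 3.11 ± 0.208. Biglycan (Bgn), a small proteoglycan, rose from 8.70 ± 2.51 to 55.9 ± 32.6 CPM, whereas decorin (Dcn), its close relative, measured 11.37, 3.491, 5.506 and 5.085 CPM in vehicle and 7.8, 1.496, 3.027 and 5.502 CPM with pyraclostrobin and did not pass the test (log2 -0.48 ± 0.477, adjusted p = 0.47, edgeR).

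A single tested matrix gene was called lower. Col19a1 (chromosome 1, 24268729 to 24594311, mm9), a fibril-associated collagen known to be made by neurons, measured 20.61, 33.36, 29.81 and 36.04 CPM in vehicle and 4.29, 10.84, 7.567 and 9.039 CPM with pyraclostrobin, with no overlap (log2 -1.91 ± 0.273, adjusted p = 0.000379, edgeR). Per kilobase of exon it ranked 8 among matrix genes in vehicle and 38 with pyraclostrobin. Col25a1 (chromosome 3, 129883809 to 130302795, mm9), a membrane-spanning collagen of neurons, was low in both first libraries, at 11.37 CPM in vehicle and 3.51 CPM with pyraclostrobin, and measured 36.07, 32.63 and 39.63 CPM in vehicle libraries 2 to 4 and 20.56, 15.51 and 19.65 CPM in pyraclostrobin libraries 2 to 4. It did not pass in the full comparison (log2 -1.03 ± 0.451, adjusted p = 0.1, edgeR) and did without both first libraries. Col26a1 and Col23a1 were near their vehicle levels, with log2 values of -0.14 ± 0.167 and -0.01 ± 0.263.

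**Figure D1:**
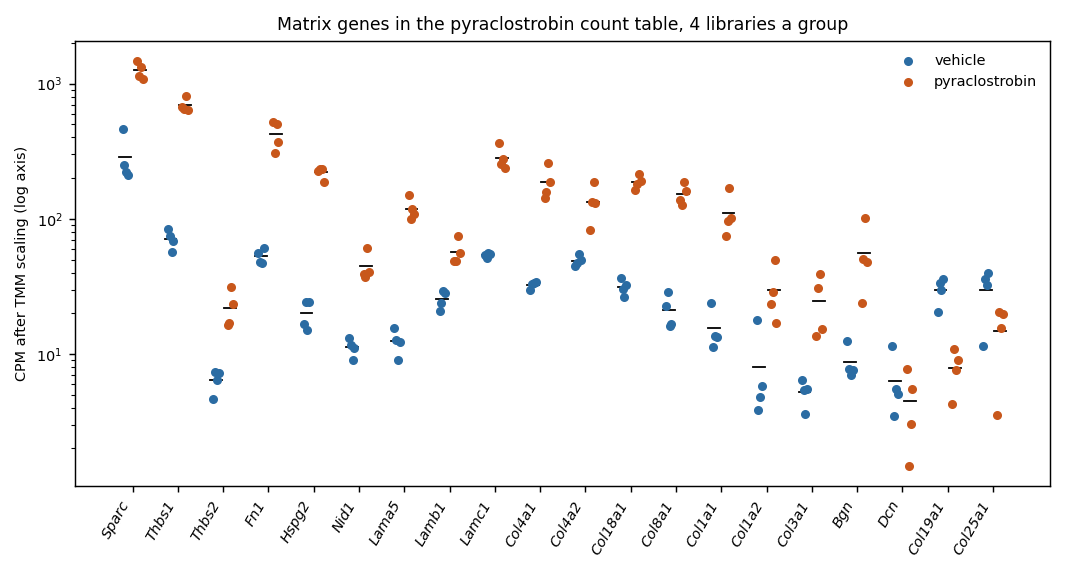
Each point is 1 library, with CPM after TMM scaling on a log axis, vehicle in blue and pyraclostrobin in orange, and black bars at the mean of 4 libraries. Pyraclostrobin libraries lie above every vehicle library for most genes, overlap them for Col1a2, Dcn and Col25a1, and lie below them for Col19a1.

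Since the first libraries stood apart, the comparison was repeated without them. Then 37 matrix genes were called, 35 higher and 2 lower, and these included the same 34 genes, with 39.2% of all genes called, 19.7% higher. Leaving out any 1 library lost at most Col1a2 and Col6a2 of the 34 genes, and Col1a2 was lost in 6 of these 8 cases. Without vehicle libraries 3 and 4, the deepest, 24 matrix genes were called, all higher and all among the 34, with 5.45% of all genes called, and Col19a1, Bgn, Col1a2, Col3a1, Thbs2, Col22a1, Col4a6, Col6a1 and Col6a2 were among those that no longer passed.

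**Figure D2:**
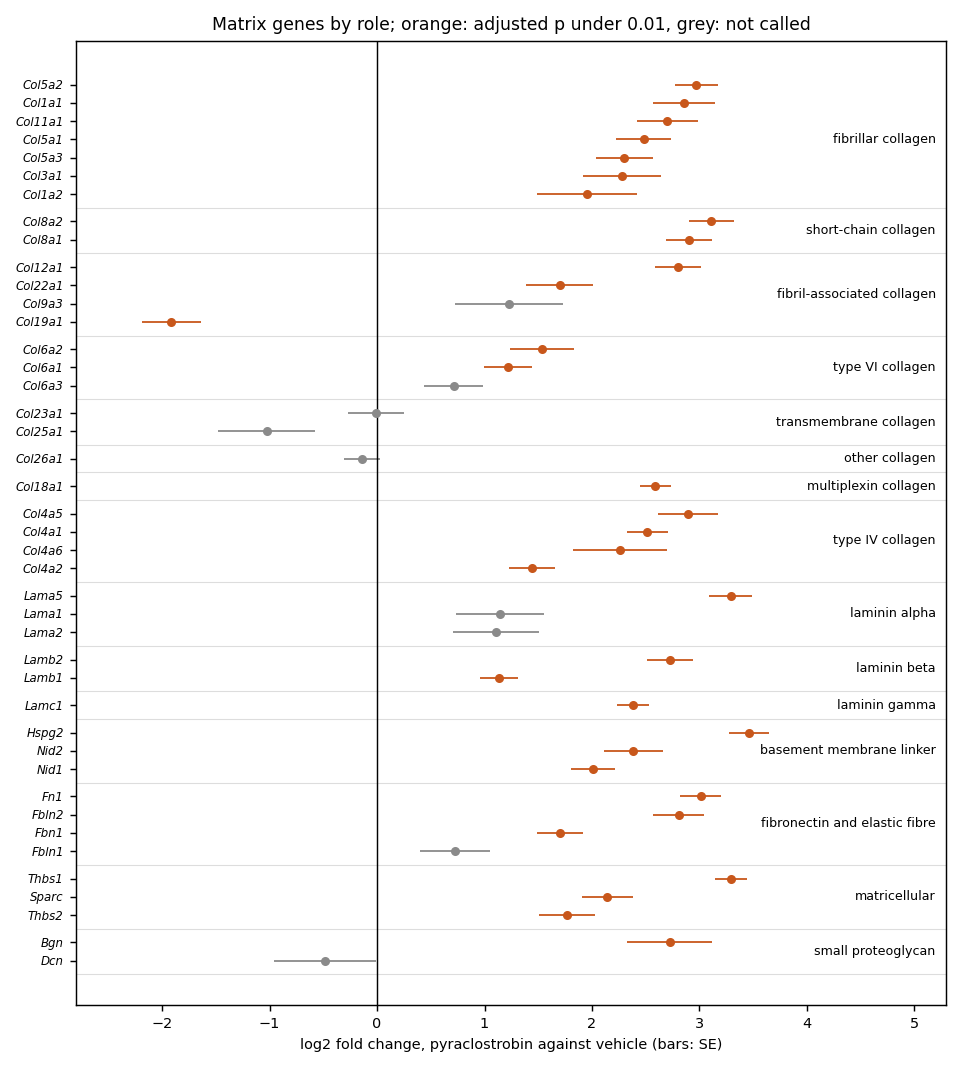
Points give the log2 fold change of 42 of the tested matrix genes, grouped by role, with bars of 1 SE from edgeR. Orange genes passed an adjusted p of 0.01, and Col19a1 is the only orange point left of 0.

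The 24 genes that failed the filter had 1 to 62 counts over all 8 libraries. When the filter was dropped and all 67 genes were tested, Col16a1 was the only one of these 24 to be called. At these low counts, 6 of the 24 had every pyraclostrobin library above every vehicle library, and 2 had every one below. Such shares over all genes that failed the filter were not worked out. Among those that overlapped between groups were Col9a1, Col9a2, Col4a3, Lama3 and Lamb3, and no change in them was detectable at this depth.

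Of 29 genes for enzymes and chaperones that modify, fold and cross-link collagen, 21 were tested: 11 were higher, 0 lower and 10 were not called, with a median log2 of 1.07, where 12.1% of all genes were higher. Lox and Loxl2, lysyl oxidases that cross-link fibres, rose by log2 3.03 ± 0.301 and 2.67 ± 0.270. Fkbp10, a chaperone of collagen folding, rose by log2 2.64 ± 0.336. Serpinh1, the collagen chaperone HSP47, rose from 72.6 ± 32.6 to 440 ± 118 CPM (SD, n = 4). Of 21 tested matrix receptors, 15 were higher and 1 lower, led by Ddr2, a receptor tyrosine kinase for fibrillar collagen (log2 3.13 ± 0.342), the integrin chain Itga5 (log2 3.02 ± 0.497) and Cd44, a receptor for hyaluronan (log2 2.61 ± 0.446). The lower one was Sdc3, a syndecan of neurons, at log2 -0.82 ± 0.119. Of 21 proteases and inhibitors, 11 were higher and 1, Mmp17, lower (log2 -0.82 ± 0.133), and the higher ones included Mmp2, a gelatinase, at log2 2.68 ± 0.248 and Timp3, a matrix-bound metalloprotease inhibitor, at log2 2.39 ± 0.198. Of 19 tested genes of TGF-beta signalling and its targets, 11 were higher and 0 lower, with Cyr61 at log2 2.97 ± 0.206 and Smad6 at log2 3.16 ± 0.435. Smad6 and Ltbp1, which are among the 11, reached at most 0.806 and 0.897 CPM in vehicle libraries. They met the count filter through pyraclostrobin libraries alone, so their calls lend no support and their sizes are imprecise. By contrast, of 8 tested brain lectican and tenascin genes only Tnc was higher (log2 3.26 ± 0.399) and only Hapln1 lower (log2 -1.19 ± 0.234), with a median log2 of 0.07. Ncan, which encodes neurocan, was at log2 0.05.

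Markers of other cells moved at the same time. Of 13 pericyte or smooth muscle markers, 6 were tested and all 6 rose, and their summed level was 91 to 168 CPM in vehicle and 1213 to 1709 CPM in pyraclostrobin libraries. That sum was mostly Acta2 and Tagln, contractile genes that other cells can express, and Kcnj8, Abcc9, Vtn, Anpep and Des stayed under 10 counts in every library. Cnn1, among the 6, reached at most 2.49 CPM in vehicle libraries. It met the count filter through pyraclostrobin libraries alone, so its call lends no support. Of 13 fibroblast or meningeal markers, 6 were tested and 4 rose, with sums of 32.2 to 63.2 and 159 to 249 CPM. Of 10 endothelial markers only Kdr could be tested, and it was higher (log2 1.56 ± 0.290, adjusted p = 0.00182, edgeR), with sums of 4.98 to 9.68 and 16.9 to 24.9 CPM for the list, whereas Cldn5, Emcn, Tie1 and Ly6c1 had no count in any library. Microglial markers rose in 6 of 6 tested, with sums of 27.4 to 41.8 and 100 to 182 CPM, and 8 of 10 neuronal markers fell, with sums of 8913 to 9448 and 4066 to 5261 CPM. Of 7 tested astrocyte markers 1 was called higher, with sums of 642 to 1136 and 981 to 3375 CPM, though the median log2 of the 7 was 1.72. The part of these cells in the matrix result was not tested.

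Across the screen, matrix genes stood highest after exposure to some inhibitors of complex I and complex III. Values of the screen are log2 deviations from each gene's centre, so they have no level, and 0 marks the centre. For each chemical the median over the 49 genes was taken. In 49 vehicle libraries this median ran from -0.38 to 0.33 (SD 0.145). Among 297 chemicals it ran from -0.46 to 0.85, with 12 above and 4 below every vehicle library. The 10 highest were trifloxystrobin (0.85), pyraclostrobin (0.82), fenpyroximate (0.72), fenamidone (0.70), famoxadone (0.64), iodosulfuron-methyl-sodium (0.49), rotenone (0.49), diethylhexyl pthalate (0.45), ethalfluralin (0.44) and cinmethylin (0.42). Most of these had a single library, and for those no test was made.

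Of 12 inhibitors of complex I or complex III, 6 were among the 10 highest and the other 6 lay within the vehicle range. Trifloxystrobin had 20 of 49 matrix genes above every vehicle library, where 4.93% of all genes were, pyraclostrobin had 21, where 4.65% of all genes were, and fenpyroximate had 21, where 5.07% were. Below every vehicle library they had 1, 2 and 3 matrix genes, where 10.8%, 11.4% and 11.8% of all genes were. Fenamidone had 15 above, where 1.95% of all genes were, and 2 below, where 6.13% were. Famoxadone had 14 above, where 1.77% of all genes were, and rotenone 6, where 0.699% were. Outside the 12, iodosulfuron-methyl-sodium had 11 above, where 2.67% were, and triadimefon 10, where 2.51% were. Such counts were therefore not particular to these inhibitors. Pyridaben, fluoxastrobin, tebufenpyrad, azoxystrobin and cyazofamid had 0 genes above every vehicle library, where 0.278%, 0.511%, 2.02%, 0.0601% and 0.173% of all genes were, and bifenazate had 2, where 1.8% were. Their medians were 0.10 for pyridaben, 0.09 for fluoxastrobin, 0.08 for tebufenpyrad, 0.06 for bifenazate, 0.03 for azoxystrobin and 0.01 for cyazofamid. Doses differed: trifloxystrobin, bifenazate, cyazofamid, fenamidone and famoxadone were used at 10 μM, fluoxastrobin at 1 μM, pyraclostrobin, fenpyroximate, pyridaben and azoxystrobin at 0.1 μM, and rotenone and tebufenpyrad at 0.01 μM, so these values stand side by side without a comparison of potency.

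**Figure D3:**
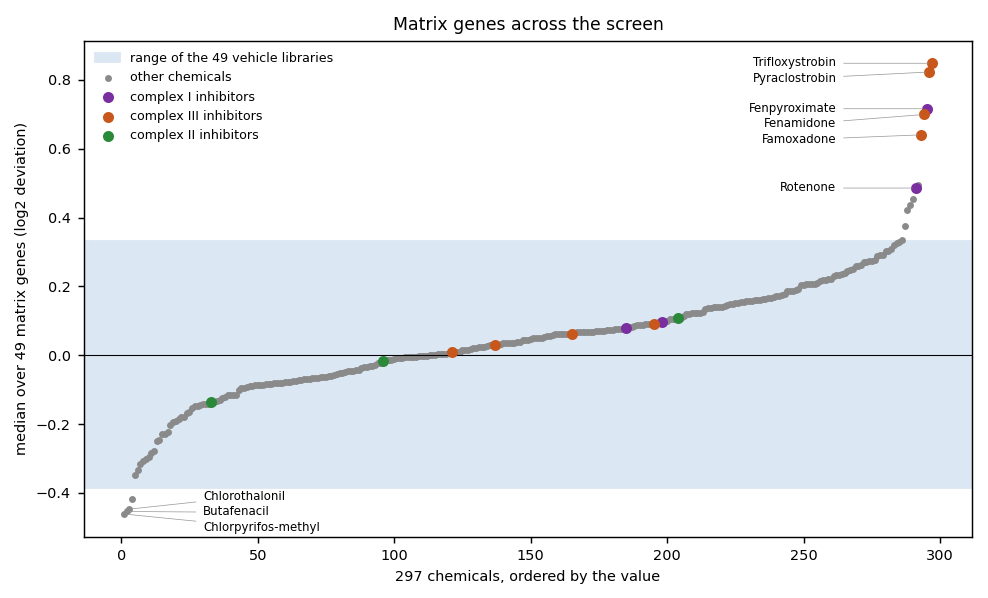
Each point is 1 of 297 chemicals, ordered by the median of 49 matrix genes on the log2 deviation scale, and the band is the range of 49 vehicle libraries. Inhibitors of complex I and III occupy 6 of the 7 highest places, and the other 6 sit within the band.

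Set as a class against the remaining chemicals, with libraries of 1 chemical combined by their median, the 12 inhibitors of complex I and III had 28 matrix genes higher and 2 lower of 49 (limma, Benjamini-Hochberg adjusted p under 0.05), where 22.5% of all genes were called, 8.11% higher and 14.4% lower. The median log2 difference over the 49 genes was 0.32. Thbs1 was highest, at 0.78 (adjusted p = 6.1e-09, limma), and over the 12 chemicals it ran from -0.37 with bifenazate to 1.89 with fenpyroximate, against -0.53 to 0.63 in vehicle libraries. It lay above all vehicle libraries with 6 of the 12. Next were Hspg2 at 0.75, Col1a1 at 0.73, Lama5 at 0.69 and Col1a2 at 0.69. Col1a1 was above 0 with all 12 chemicals, from 0.03 to 2.04, but its vehicle median was also above 0, at 0.10. It lay above all vehicle libraries with 5 of the 12. Bgn and Lamc1 were called at 0.63 and 0.45, Nid1 at 0.32 and Thbs2 at 0.30, and Col3a1, Lamb1 and Dcn were not, at 0.30, 0.18 and -0.11. Col19a1 and Col25a1 were the 2 lower genes, at -0.54 and -0.45, and Col19a1 was below 0 with 10 of the 12 chemicals. Taken alone, the 4 complex I inhibitors had 15 matrix genes called, where 6.1% of all genes were, and the 8 complex III inhibitors 25, where 15.7% were, and no test was made between them. For the 12 together, 10 of 10 neuronal markers were lower (median -0.32), and 6 of 7 pericyte or smooth muscle and 3 of 6 fibroblast or meningeal markers were higher (medians 0.49 and 0.33), as were 4 of 7 astrocyte markers (median 0.24). Their part in the matrix values was not tested. The 3 inhibitors of complex II, boscalid, carboxin and flutolanil, had 0 matrix genes called, with 2 at an unadjusted p under 0.05 (limma) and a background of 0% called. With 3 chemicals this does not show that they had no effect.

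Fenamidone, an imidazolinone, and famoxadone, an oxazolidinedione, both complex III inhibitors used at 10 μM, were the repeated chemicals with the largest rises. Fenamidone raised 19 and lowered 2 of 49 matrix genes (limma, adjusted p under 0.05), where 16.1% of all genes were called, 4.91% higher and 11.2% lower. Lama5 was highest, with 1.44 and 1.69 in the fenamidone libraries against -1.06 to 1.11, median -0.02, in vehicle (log2 difference 1.60, adjusted p = 1.56e-06, limma). Hspg2 held 1.43 and 1.60 against -1.31 to 0.94 in vehicle (difference 1.54), Fn1 1.37 and 1.27 against -1.34 to 0.80 (difference 1.39), and Thbs1 1.34 and 1.24 against -0.53 to 0.63 (difference 1.33). Col5a2 and Col12a1 differed by 1.42 and 1.34. Genes that fell were Col25a1, with -1.16 and -1.49 against -0.41 to 1.43 in vehicle (difference -1.51, adjusted p = 1.63e-08, limma), and Col19a1, with -1.13 and -0.77 against -0.66 to 0.57 (difference -0.997). Famoxadone raised 19 and lowered 1, where 11.6% of all genes were called, 3.28% higher and 8.28% lower. Its largest were Hspg2 (1.18 and 2.00, difference 1.62), Thbs1 (1.17 and 1.78, difference 1.51), Col1a1 (1.29 and 1.75, difference 1.49), Lama5 (1.04 and 1.87, difference 1.49) and Col1a2 (1.47 and 1.74, difference 1.44). Col25a1 was lower (-0.23 and -0.62, difference -0.61, adjusted p = 0.0393, limma), and Col19a1 did not pass (difference -0.42). Tested against each other, these chemicals differed in 0 of 49 matrix genes, with 1 at an unadjusted p under 0.05, and in 0.0301% of all genes (limma, 1 pair of chemicals compared). The difference, fenamidone minus famoxadone, had a 95% interval of -0.82 to 0.46 for Thbs1, -0.86 to 0.71 for Hspg2 and -0.61 to 0.83 for Lama5, so differences within these bounds could not be told from 0. The gene with an unadjusted p under 0.05 was Col25a1, at -0.90 (interval -1.48 to -0.33, adjusted p = 0.718, limma). Each comparison rests on 2 libraries: without the second famoxadone library 2 matrix genes were called, Thbs1 and Col8a1, where 0.744% of all genes were, and without the second fenamidone library 11, where 3.66% were. Both shared the 49 vehicle libraries.

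As with pyraclostrobin, RNA of cell type markers moved with these results. The study itself counted cells stained for NeuN, Gfap and Iba1 after fenamidone at 10 μM for a day, and reported no significant change. It also reported significantly lower RNA integrity in the expression cluster that holds fenamidone and famoxadone, though the average there was still high. The part of RNA quality in these values was not tested. Neuronal markers were lower in 10 of 10 with fenamidone (median -0.77) and in 10 of 10 with famoxadone (median -0.60), whereas pericyte or smooth muscle markers were higher in 4 and 5 of 7 (medians 0.86 and 0.95) and fibroblast or meningeal markers in 4 and 2 of 6 (medians 0.77 and 0.55). Astrocyte markers were higher in 4 and 1 of 7 (medians 0.66 and 0.58) and microglial markers in 2 and 0 of 5 (medians 1.03 and 0.65). Their part was not tested. Matrix receptors followed, with 14 higher and 2 lower of 22 with fenamidone and 12 higher and 1 lower with famoxadone. Collagen-modifying enzymes were higher in 7 of 21 with fenamidone and in 2 of 21 with famoxadone, and none was lower.

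Rotenone, a complex I inhibitor, raised Thbs1 (0.98 and 0.80 in its libraries, difference 0.93, adjusted p = 0.0208, limma), Col8a1 (0.93 and 0.77, difference 0.80) and Sparc (0.60 and 0.50, difference 0.54), where 1.7% of all genes were called, 0.474% higher and 1.23% lower. These 3 calls of 49 were lost when either library was left out. With azoxystrobin 0 matrix genes were called (limma), as of all genes 0%, and 3 were at an unadjusted p under 0.05. Its Thbs1 values were 0.04 and -0.30, and its Hspg2 values 0.14 and -0.85. Other repeated chemicals had 0 matrix genes called, and of all genes 0.391% with prochloraz, 0.323% with thiram, 0.165% with mancozeb, 0.0601% with ethylenethiourea, 0.0451% with imazaquin, 0.015% with diethyltoluamide and 0% with clopyralid, mevinphos and picloram (limma). With mevinphos, 15 of 49 matrix genes were at an unadjusted p under 0.05 (limma), with a median log2 difference of 0.31. The share of all genes at that unadjusted p was not worked out, so the 15 have no background and are not read as a result.

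**Figure D4:**
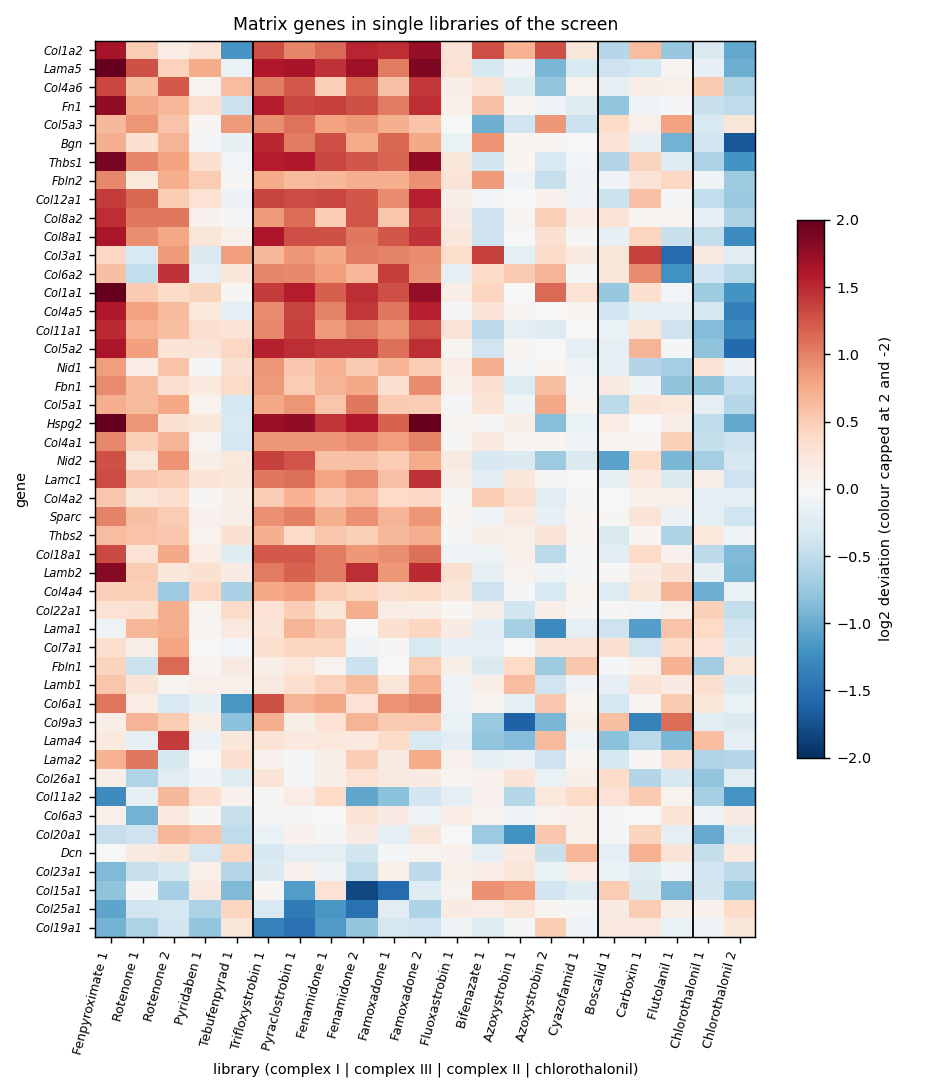
Rows are 48 of the matrix genes, ordered by their median over 12 inhibitors of complex I and III, and columns are single libraries of these inhibitors, of 3 complex II inhibitors and of chlorothalonil. Red is above and blue below the gene's centre on the log2 scale: fenpyroximate, trifloxystrobin, pyraclostrobin, fenamidone and famoxadone are red over the upper rows, and Col25a1 and Col19a1 in the bottom rows are blue in most of these.

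At the other end, chlorothalonil, a fungicide that reacts with thiols, lowered 5 of 49 matrix genes and raised 0 (limma), where 0.601% of all genes were lower and 0.872% higher. Col5a2 held -0.80 and -1.55 against -0.70 to 0.84 in vehicle (difference -1.17, adjusted p = 0.00289, limma). Col11a1, Col8a1, Col4a5 and Thbs1 differed by -0.98, -0.92, -0.87 and -0.86. Its second library was the lower one for all 5. Without that library 0 matrix genes were called (limma), with 5 at an unadjusted p under 0.05, where 0.368% of all genes were called, and without the first library 3 were called, where 0.661% were. Pericyte or smooth muscle markers had a median difference of -0.54 with 1 of 7 lower, astrocyte markers one of -0.42 with 1 of 7 lower and fibroblast or meningeal markers one of -0.18 with 1 of 6 lower, and their part was not tested. The median over matrix genes was -0.45 with chlorothalonil, at rank 3 from the lowest. The 10 lowest chemicals were chlorpyrifos-methyl (-0.46), butafenacil (-0.45), chlorothalonil, dichlorprop (-0.42), methylene bis(thiocyanate) (-0.35), dicofol (-0.33), prallethrin (-0.32), propetamphos (-0.31), bendiocarb (-0.30) and difenoconazole (-0.30). Of these, methylene bis(thiocyanate) had 14 matrix genes below every vehicle library, where 2.76% of all genes were, butafenacil 11, where 1.98% were, and chlorpyrifos-methyl 10, where 2.08% were. These chemicals were picked by low values of the same genes in the same single libraries. Their counts were thus in part fixed by that choice and lend no support.

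Topotecan, an inhibitor of topoisomerase 1, changed matrix genes in both directions. With 32 libraries, 5 were higher and 11 lower of 49 (limma), but 45.7% of all genes were called, 24.9% higher and 20.9% lower, so 16 of 49 was fewer than the background share. Col19a1 fell most, with a median of -1.01 (-1.54 to -0.32) against 0.08 (-0.66 to 0.57) in vehicle (difference -1.04, adjusted p = 1.08e-25, limma). Col25a1 had a median of -0.59 (-1.34 to 0.07) against 0.16 (difference -0.78, adjusted p = 2.84e-19, limma). Dcn, Nid1 and Col22a1 followed at -0.49, -0.28 and -0.27. Among genes that rose, Thbs1 had a median of 0.24 (-0.50 to 1.35) against -0.05 (-0.53 to 0.63) in vehicle (difference 0.35, adjusted p = 3.63e-05, limma), and Col6a3, Lamb1 and Sparc differed by 0.32, 0.26 and 0.14. Topotecan and vehicle libraries overlapped for each of these genes. Col1a1, Col3a1, Col4a1, Hspg2 and Fn1 were not called, at 0.13, -0.00, -0.09, 0.14 and 0.11. Neuronal markers were lower in 8 and higher in 1 of 10 (median -0.29), astrocyte markers lower in 5 of 7 (median -0.43), the 1 endothelial marker and 1 of 5 microglial markers lower, 2 of 6 fibroblast or meningeal markers higher, and 3 of 6 oligodendrocyte markers higher and 1 lower. Their part was not tested. By gene length in mm9, found for 48 of 49, 7 of 22 genes over 100 kb were lower and 0 higher, whereas of 26 shorter ones 3 were lower and 5 higher. Median log2 differences were -0.09 and 0.08, against -0.23 for 1932 genes of any kind over 100 kb and 0.05 for 10460 shorter ones. Genes of any kind thus differed by length in the same direction. Shares of all genes called by length were not worked out, so these counts show nothing particular to matrix genes. Col26a1, also lower, had no gene model with a length. Col19a1 and Col25a1 span 325.6 and 419 kb.

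**Figure D5:**
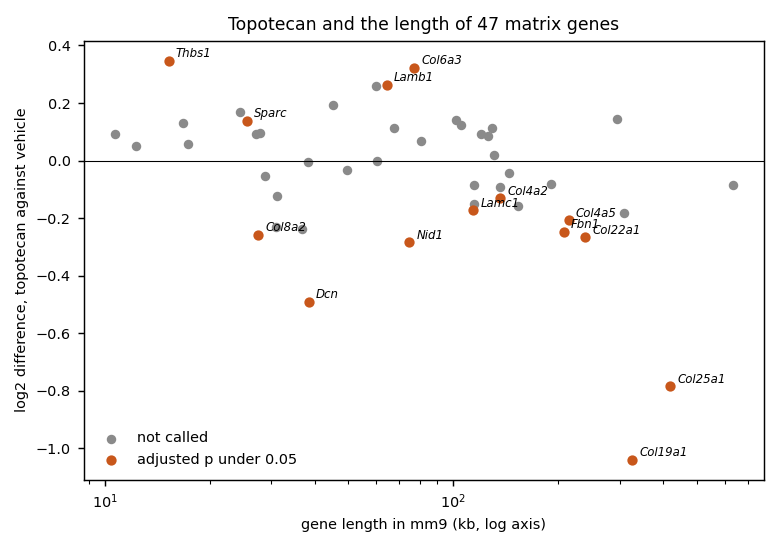
Each point is 1 of 47 matrix genes, with gene length on a log axis and the log2 difference between 32 topotecan and 49 vehicle libraries. The genes called higher, in orange above 0, are all shorter than 100 kb, and Col19a1 and Col25a1 lie lowest among the long ones.

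Values of matrix genes varied widely among vehicle libraries. The median SD over 49 vehicle libraries was 0.401 for matrix genes and 0.254 for all genes, and 23 of the 49 lay in the upper 25% of all genes. Lama4 varied most (SD 0.688), followed by Col9a3 (0.672) and Col3a1 (0.651), and Sparc least (0.181), below Lamc1 (0.234) and Col4a2 (0.249). Hspg2 had an SD of 0.416 and Lama5 one of 0.383. In vehicle libraries of the pyraclostrobin counts, Lama4, Col9a3 and Col3a1 averaged 1.70, 2.34 and 5.25 CPM. Sparc, Lamc1 and Col4a2 averaged 286, 54.2 and 49.1 CPM there. SDs were not matched on level, so the part of counting noise in low genes was not tested.

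Sizes of change depend on the table. For the pyraclostrobin library held in both, the median over 43 genes was log2 1.99 above the vehicle mean in counts and 0.88 in the screen, and all 43 were nearer to 0 in the screen. Thbs1 was 3.25 and 1.60, and Col19a1 -2.64 and -1.49. Values of these tables are therefore not on 1 scale.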

How the data were processed

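The 67 matrix genes and the other gene lists were chosen with earlier results of these data known. The authors used TagDust to clean reads, TopHat to place them on mm9, and then discarded ribosomal reads. The deposited counts are raw reads over RefSeq exons, joined by symbol. For the screen, the authors computed RPKM, kept genes detected in over 90% of samples and longer than 500 bases, and deposited log10 values that were quantile-normalized, median-centred and corrected by a mixed model for batches of culture and of sequencing. These deposited log10 values were converted here to log2. They hold no depth, and batch can no longer be examined in them.

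Counts were fitted with edgeR 4.0.16 (TMM, quasi-likelihood test, at least 10 counts in 4 libraries, threshold 0.01), with DESeq2 1.42.0 as an alternative, and screen values with limma 3.58.1 (variance trend, threshold 0.05), in R 4.3.3. On the fitted tables the adjustment ran over 12324 and 13304 genes. Two-sided tests were used. Repeated chemicals shared 1 estimate of spread. Where matrix genes at an unadjusted p are counted, the share of all genes was not worked out, so these counts have no background. Library totals were 2409623 to 7833440 counts, where 10 counts are a small number and rates of low genes are imprecise. The labels do not say that libraries came from separate cultures. The study describes the pyraclostrobin libraries as 4 per group from 3 biological replicates, without tying libraries to them, so some may share a replicate. Here n counts libraries, and p-values may in part measure technical spread. On simulated counts for pyraclostrobin against vehicle (11660 genes), 95% of 4-fold and 63% of 2-fold changes were recovered. Gene lengths and positions came from GENCODE models of mm9 (66 of 67 genes). Mitochondrial inhibitors were grouped by textbook target. Named genes were 17 preset ones, the 5 largest rises and falls called in each comparison, calls against the main direction, up to 3 of each other list, and the 10 highest and lowest chemicals. Pathway genes named without passing the test, such as Ncan, and Serpinh1, Kdr and the genes that failed the count filter were added after their values were seen. Counts for sulforaphane with fenamidone, in 6 columns with 1 shared heading, were not used here, since columns could not be assigned to samples. Other settings were tried as listed in the closing section. Values of single genes withheld from this text are not reported here, though such genes stay in the fits and counts.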

Additional observations from a re-analysis of the deposited data

Results flagged for a closer look

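The share of counts on matrix genes in vehicle library 1, 0.119%, lay far from those of the other vehicle libraries, 0.0801% to 0.0851%, with a gap of 0.872 of the group's range (Dixon's critical value for 4 libraries is 0.829). This was 1 of 41 groups examined, and chance alone gives about 1 in 20. Without that library 36 matrix genes were called, against 34 with it (edgeR).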

How the results depend on the processing

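For pyraclostrobin, 32 to 36 matrix genes were called when any 1 library was left out, 34 with RLE size factors, 34 with DESeq2, 35 at a threshold of 0.05 and 35 of 67 with no filter. Over all genes tested, calls were 2631, against 1699 to 4136 with 1 library left out, 663 without vehicle libraries 3 and 4, 4874 without the first library of each group and 4301 at a threshold of 0.05. Removing both deep libraries and removing both first libraries were chosen after seeing the data. With the library number in the headings as a replicate block 35 were called, Col25a1 being the added one. Same-numbered libraries deviated together with r of 0.376, 0.102, -0.0287 and 0.161, so the numbers were not taken as pairs. Leaving out 1 library gave 11 to 17 called genes for fenamidone (21 with both), 2 to 17 for famoxadone (20 with both) and 0 for rotenone (3 with both). Rotenone also had 0 at a threshold of 0.01. Chlorothalonil, whose single libraries were left out after seeing the data, had 0 to 3 (5 with both). The 12 inhibitors of complex I and III had 30 genes called, 24 to 31 with 1 chemical left out, and 15 with complex I inhibitors only. For topotecan 11 to 16 genes were called over all alternatives, and for azoxystrobin and complex II inhibitors 0 under each. Chemicals above every vehicle library numbered 12 by the median over matrix genes, 10 by the mean and 13 by first libraries. The median SD among vehicle libraries was 0.401, or 0.343 as a scaled median absolute deviation. Of 1129 values of single named genes under these settings 1056 stayed on their side of the threshold, 73 fell below it and 0 changed sign while called. Sulforaphane with fenamidone against vehicle with fenamidone was not run. Genes of a few CPM, and most chemicals with 1 library, allow no firm statement. Causes were not tested.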
